A study of Mus musculus with 7 samples.

Results

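A set of 9 genes, of the Notch pathway and of the proneural factors that it holds in check, was followed through 3 postnatal ages of the mouse retina, by the level of histone H3 lactylated at lysine 18 (H3K18La) at their peaks. The set held the receptor gene Notch1 (ENSMUSG00000026923), the ligand genes Dll1 (ENSMUSG00000014773), Dll4 (ENSMUSG00000027314) and Jag1 (ENSMUSG00000027276), the Hes factor genes Hes5 (ENSMUSG00000048001) and Hes6 (ENSMUSG00000067071), and the basic helix-loop-helix (bHLH) factor genes Neurog2 (ENSMUSG00000027967), Neurod4 (ENSMUSG00000048015) and Olig2 (ENSMUSG00000039830). Every peak that the deposited annotation gave to one of these symbols was taken, whatever its place or level, which gave 52 of 108253 peaks and 9 of 25400 genes. H3K18La was profiled by CUT&Tag, in which an antibody guides an enzyme to the chromatin carrying the mark so that the DNA around it can be sequenced. The libraries came from dissociated whole retinas of C57BL/6J mice at P4, P10 and P28 (postnatal days 4, 10 and 28), and P4 and P10 had 2 libraries each and P28 had 3. All carried the same genotype and no treatment, and the labels put all libraries in the first batch except P28 replicate 1, which was in the second. The study's methods name the libraries of an age biological replicates, and how many animals each held was not given in the sources used here.

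Notch is a receptor on the cell surface that is cut when it meets a ligand of the Delta or Jagged type on a neighbouring cell, and its inner part then enters the nucleus and joins the DNA-binding protein RBPJ. The complex switches on Hes genes, whose products are repressors of proneural genes, so that a cell receiving the signal stays a progenitor or becomes glia while its neighbours become neurons. In the retina this exchange keeps progenitors dividing before and shortly after birth, and Müller glia later keep Notch pathway genes in use. Lactylation of histones draws on lactate, a product of glycolysis, and H3K18La has been linked to active genes.

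The read numbers behind these values were small at the early ages. Reads in peaks numbered 295383 and 358971 in the P4 libraries, 199970 and 660740 in the P10 libraries and from 1615969 to 8274373 in the P28 libraries. Values are RPKM, reads per kilobase of peak scaled to a normalised library size. The share of that size lying in peaks was 16.3% and 17.6% at P4, 36.1% and 52.1% at P10 and from 42.4% to 57.1% at P28, so the scaling chosen moves every comparison with P4. An age at which each library held 3 reads or fewer is called at the floor. This was so for 26 of the 52 peaks at P4 and for 20 at P10, against 61.7% and 61.3% of all peaks. Peaks entered the set by being called at any of the ages. A peak at the floor at one age may have been kept only through another. The direction of its change between them can then be partly fixed by that choice. In P10 replicate 1, 22 of the 52 held no read, against 45.8% of all peaks. For this reason each gene was also given a single level, the reads of all its peaks over their summed width. In a whole tissue, fewer cells carrying the mark at a gene and less of the mark in each cell cannot be told apart.

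By annotation, promoters made up 11 of the 52 peaks (21.2%, against 15.8% of all peaks), distal intergenic sites 22 (42.3%, against 32.8%), exons 10 (19.2%, against 6.06%) and introns 8 (15.4%, against 42.0%), and 1 lay in a 3′ UTR. Notch1 held 17 peaks, Jag1 9, Neurod4 8, Dll4 and Neurog2 4 each, Dll1 and Hes5 3 each, and Hes6 and Olig2 2 each. Both Olig2 peaks were distal, and no peak of the set was annotated as an Olig2 promoter. Median peak width was 898 bases, against 757 over all peaks.

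Promoter sequences were read for all 9 genes from RefSeq (GRCm38.p6), as 12 windows running from 250 bases before to 50 bases after a transcription start. The letters searched, on both strands, were TGGGAA, the core of the RBPJ site, its longer form GTGGGAA, which contains it, and CACNAG, the N-box bound by Hes repressors. Of 32851 windows of all genes, 25.6% held TGGGAA, 6.38% GTGGGAA and 42.5% CACNAG. Hes5 was the only one of the 9 genes with TGGGAA in a window. It had 2 matches, beginning 226 and 82 bases before the start, and both were also GTGGGAA. A match describes letters in this window and is not a binding site by itself. The 5 windows printed, with the upstream one of 2 for Dll1, were chosen because they show the range of promoters in the set, from Hes5 and Dll1, where the promoter peak rose, through Notch1, where it was not called, to Neurog2 and Olig2, whose windows no peak overlapped. Capitals mark TGGGAA or its reverse complement in Hes5 and CACNAG or its reverse complement in the others, and in Notch1 the run of 8 capitals is a pair of overlapping matches. The Olig2 window held neither.
Hes5: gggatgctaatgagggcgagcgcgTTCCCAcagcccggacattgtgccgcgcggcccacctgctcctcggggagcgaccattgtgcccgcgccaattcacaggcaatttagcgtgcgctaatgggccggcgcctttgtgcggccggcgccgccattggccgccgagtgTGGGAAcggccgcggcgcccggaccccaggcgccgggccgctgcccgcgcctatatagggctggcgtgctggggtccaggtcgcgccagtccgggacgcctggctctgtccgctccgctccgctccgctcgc
Dll1: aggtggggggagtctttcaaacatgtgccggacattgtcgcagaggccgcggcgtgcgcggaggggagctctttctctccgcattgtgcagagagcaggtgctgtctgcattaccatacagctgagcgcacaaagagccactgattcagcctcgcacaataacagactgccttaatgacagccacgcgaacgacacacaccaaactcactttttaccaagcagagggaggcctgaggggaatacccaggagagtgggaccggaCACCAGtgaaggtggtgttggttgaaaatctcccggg
Notch1: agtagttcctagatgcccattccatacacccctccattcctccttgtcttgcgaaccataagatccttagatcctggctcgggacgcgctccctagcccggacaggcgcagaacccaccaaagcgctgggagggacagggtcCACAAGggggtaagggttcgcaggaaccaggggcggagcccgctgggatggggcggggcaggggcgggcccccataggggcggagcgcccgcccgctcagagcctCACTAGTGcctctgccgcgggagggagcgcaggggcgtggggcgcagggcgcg
Neurog2: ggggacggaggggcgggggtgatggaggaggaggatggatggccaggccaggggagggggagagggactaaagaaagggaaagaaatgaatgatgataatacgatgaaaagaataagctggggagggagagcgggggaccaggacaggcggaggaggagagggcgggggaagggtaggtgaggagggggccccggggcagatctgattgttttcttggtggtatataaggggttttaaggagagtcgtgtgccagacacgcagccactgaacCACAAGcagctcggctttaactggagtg
Olig2: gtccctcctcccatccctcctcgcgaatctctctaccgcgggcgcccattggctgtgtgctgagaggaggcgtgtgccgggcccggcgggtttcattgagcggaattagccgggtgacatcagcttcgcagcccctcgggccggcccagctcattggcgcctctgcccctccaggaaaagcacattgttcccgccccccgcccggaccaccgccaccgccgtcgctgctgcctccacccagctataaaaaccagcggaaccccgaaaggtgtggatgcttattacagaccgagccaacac
They lie at chr4:154960673-154960972 (plus strand), chr17:15376883-15377182 (minus), chr2:26503773-26504072 (minus), chr3:127632886-127633185 (plus) and chr16:91225300-91225599 (plus). Their GC content was 72.7%, 56.3%, 68.3%, 58.0% and 65.0%, against a median of 52.7% over all windows. The Hes5 window lay wholly within its promoter peak. Of the others, 208 bases of the Dll1 window and 279 of the Notch1 window lay under a peak, while the start site of Neurog2 was 246 bases and that of Olig2 2264 bases from the nearest peak, the latter annotated to Gm49614.

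At P28, H3K18La over all peaks of a gene was higher than at P4 for Hes5, Jag1, Dll1 and Dll4, by 8.41-fold, 4.10-fold, 4.14-fold and 3.00-fold of the mean RPKM. These were the Hes factor gene most directly switched on by Notch and all 3 ligand genes of the set. Notch1, Hes6, Neurod4, Neurog2 and Olig2 did not pass the test. The 4 of 9 genes called, all higher, stood beside 40.7% of all genes called (limma on log2(RPKM + 1), Benjamini-Hochberg adjusted p under 0.01 over all genes), a share close to that of the members. The median change of the 9 genes was 0.84 on the log2(RPKM + 1) scale and that of all genes 0.76. With low values filtered the order was the other way, 1.04 for the 7 members kept and 1.39 for all genes kept. Under this filter 3 of the 7 were called, beside 63.7% of all genes. All P28 libraries stood above both P4 libraries for 7 of the 9 genes, beside 58.7% of all genes. Between P4 and P10 only Hes5 was called, 1 of 9 genes against 24.5% of all genes. From P10 to P28 0 of 9 were called, against 4.99% of all genes, while 3 of the 9 had an unadjusted p under 0.05, as did 38.9% of all genes. Both limma voom on the recovered reads and the fit without P10 replicate 2 called 2 of the 9, beside 10.5% and 22.4% of all genes.

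**Figure D1:**
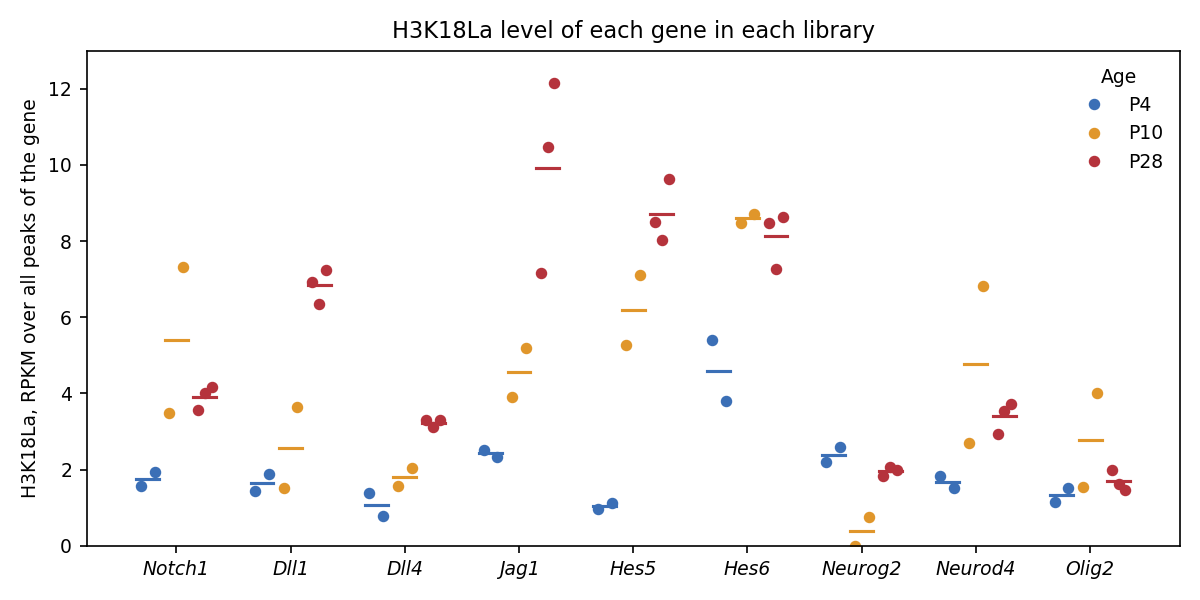
H3K18La level of the 9 genes, as RPKM over all peaks of each gene (vertical axis), with 1 point per library coloured by age and a bar at the mean of each age. The 3 P28 libraries sit above both P4 libraries for every gene but Neurog2 and Olig2, and a P10 library is the highest point for Notch1, Hes6, Neurod4 and Olig2.

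The order of the levels, per length, shifted with age. At P4 Hes6 was highest with 4.60 ± 1.14 RPKM (SD, n = 2), followed by Jag1 with 2.42 ± 0.14 and Neurog2 with 2.39 ± 0.28, which did not differ beyond their spread, and Hes5 was lowest with 1.04 ± 0.10, within the spread of Dll4 at 1.08 ± 0.43. At P10 Hes6 was again highest with 8.60 ± 0.16 RPKM (n = 2), Hes5 was second with 6.19 ± 1.30, within the spread of Notch1 at 5.40 ± 2.71, and Neurog2 was lowest with 0.38 ± 0.54. At P28 Jag1 led with 9.93 ± 2.54 RPKM (n = 3), followed by Hes5 with 8.72 ± 0.82, Hes6 with 8.13 ± 0.75, neighbours that did not differ beyond their spread, and then by Dll1 with 6.84 ± 0.45, whose libraries all lay below those of Hes6. Notch1 at 3.91 ± 0.32, Neurod4 at 3.4 ± 0.41 and Dll4 at 3.23 ± 0.10 followed at P28, each within the spread of its neighbour, and Neurog2 at 1.97 ± 0.12 and Olig2 at 1.69 ± 0.28 were lowest and also within each other's spread. By mean level Hes5 thus moved from the last place at P4 to second at P10 and P28, each place being within the spread of a neighbouring gene.

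Hes5 is a repressor that Notch signalling switches on in neural progenitors and glia. Over its 3 peaks the level was 0.96 and 1.11 RPKM at P4, 5.27 and 7.11 at P10 and 8.49, 8.04 and 9.62 at P28, from 8 and 7 reads in the P4 libraries. No library of one age overlapped those of another. The change from P4 was 2.25 (SE 0.21, limma adjusted p = 9.95e-05) at P28 and 1.81 (SE 0.23, adjusted p = 7.99e-04) at P10 on the log2(RPKM + 1) scale, and the further change from P10 to P28 was 0.44 (adjusted p = 0.153). Both calls were kept without each library in turn, within the first batch and under each scaling tried, where the change to P28 was 1.65 after median centring and 1.21 when libraries were scaled by their total of reads in peaks.

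All 3 Hes5 peaks were called higher from P4 to P28, beside 18.9% of all peaks. The promoter peak, chr4:154960544-154961901, covers the start site and the printed window with both RBPJ core matches. It held 1.67 and 0.88 RPKM at P4, 6.65 and 9.87 at P10, and 14.30, 12.04 and 14.88 at P28. It was 10.8-fold higher at P28 than at P4 (log2 change 2.71, SE 0.32, limma adjusted p = 3.17e-04) and the ages did not overlap. The distal peak chr4:154945189-154946922, annotated at -14001 bases from the start, was at the floor at P4 with 0.52 and 1.03 RPKM, then held 5.21 and 5.46 at P10 and 4.39, 5.85 and 6.47 at P28, so that its P10 and P28 libraries overlapped. Its log2 change from P4 was 1.85 at P10 (adjusted p = 0.00633) and 1.89 at P28 (adjusted p = 0.00287). The peak chr4:154952733-154953409, annotated at -7514 bases, was also at the floor at P4, with 0.67 and 1.76 RPKM. It held 2.67 and 5.82 at P10 and 7.36, 5.63 and 7.14 at P28, with a log2 change of 1.84 from P4 to P28 (adjusted p = 0.00633). Both upstream peaks lost their calls with the total of reads in peaks and with a replicate block. The peak at -7514 bases also lost its call with a pseudocount of 0.1 and after median centring. At the promoter peak the signal at P28 was thus above that of both upstream peaks in every library, whereas at P4 the 3 peaks lay within 0.52 to 1.76 RPKM.

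**Figure D2:**
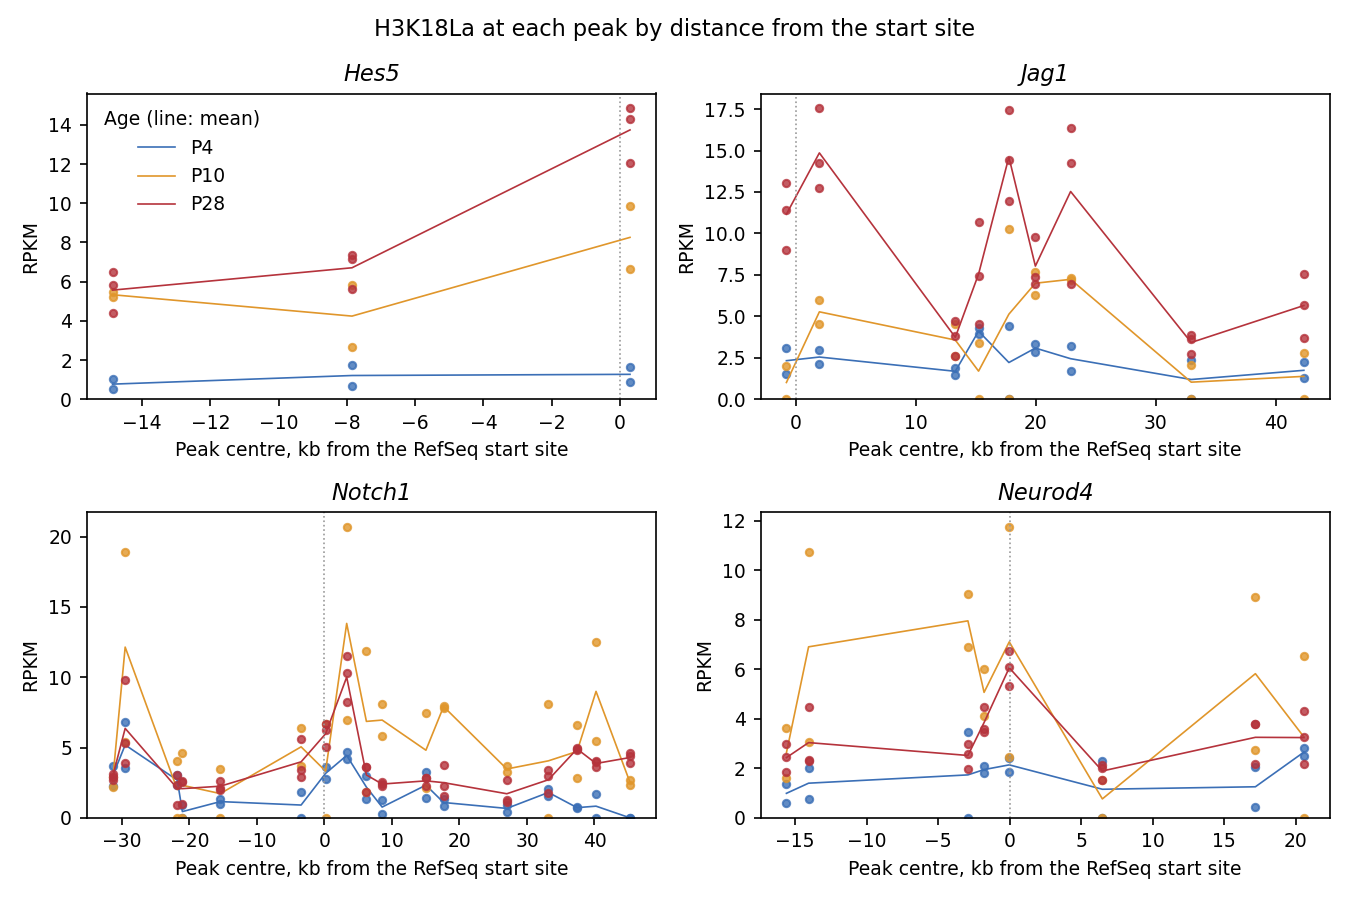
RPKM of each peak (vertical axis) against the distance of its centre from the RefSeq transcription start in kilobases, positive in the direction of transcription, for Hes5, Jag1, Notch1 and Neurod4. Points are libraries coloured by age and lines join the age means. At Hes5 and Jag1 the P28 mean is highest at every peak, while at 11 of 17 Notch1 peaks and 7 of 8 Neurod4 peaks the P10 mean is highest.

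Jag1 encodes a Jagged-type ligand that is also used in blood vessels and glia. Its level over 9 peaks was 2.52 and 2.33 RPKM at P4, 3.91 and 5.19 at P10 and 7.16, 10.47 and 12.16 at P28. The libraries of the ages did not overlap, and P28 replicate 1, of the second batch, was the lowest of its age. The log2 change from P4 to P28 was 1.65 (SE 0.25, limma adjusted p = 6.88e-04) and was 1.84 (adjusted p = 0.00124) within the first batch. It was no longer called with the total of reads in peaks (0.39, adjusted p = 0.0556) or without P4 replicate 1 (adjusted p = 0.0117) or P4 replicate 2 (0.0135). The change from P4 to P10 was 0.69 (adjusted p = 0.0765) and that from P10 to P28 0.96 (adjusted p = 0.0278), and neither was called. All 9 peaks had their highest mean at P28 and all 9 had all P28 libraries above both P4 libraries, whereas 50.6% of all peaks did.

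2 of the 9 Jag1 peaks were called from P4 to P28, both in exons, beside 23.1% of all peaks. The peak chr2:137113593-137115569, annotated 1075 bases into the gene, held 2.99 and 2.11 RPKM at P4, 4.57 and 5.98 at P10 and 12.74, 14.27 and 17.56 at P28. It was 5.83-fold higher at P28 than at P4 (log2 change 2.16, SE 0.31, adjusted p = 6.91e-04). The peak chr2:137092141-137095109, 21535 bases into the gene, held 1.68 and 3.22 RPKM at P4, 7.30 and 7.17 at P10 and 6.98, 14.26 and 16.35 at P28, with a log2 change of 1.93 (SE 0.39, adjusted p = 0.00407). The promoter peak just upstream of the start, chr2:137116747-137117910, held 3.12 and 1.54 RPKM at P4, 0.00 and 2.03 at P10 and 9.02, 11.41 and 13.06 at P28. P10 was at the floor there, with 0 and 3 reads, and this peak came closest of the 52 to a call between P10 and P28 (log2 change 2.79, SE 0.49, adjusted p = 0.0126). Its change from P4 to P28 was 1.90 (adjusted p = 0.0130), also short of the threshold.

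Dll1 encodes the Delta-type ligand through which newborn neurons signal to progenitors. Its level over 3 peaks was 1.43 and 1.88 RPKM at P4, 1.51 and 3.64 at P10 and 6.93, 6.35 and 7.24 at P28. P4 and P10 overlapped and all P28 libraries stood above both. The log2 change from P4 to P28 was 1.57 (SE 0.28, limma adjusted p = 0.00165), while that from P4 to P10 was 0.37 (adjusted p = 0.383) and that from P10 to P28 1.20 (adjusted p = 0.0203). The P28 call was lost with the total of reads in peaks (0.42, adjusted p = 0.132) and without either P4 library (0.0271 and 0.0169). Most of the reads lay in the promoter peak, chr17:15374420-15377090, which held 2.21 and 2.46 RPKM at P4, 2.70 and 4.13 at P10 and 10.31, 8.72 and 9.89 at P28. This peak was 4.13-fold higher at P28 than at P4 (log2 change 1.67, SE 0.32, adjusted p = 0.00294), without overlap between the ages.

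Dll4 encodes the Delta-type ligand of early neurogenic retinal cells and of sprouting vessels. Its level over 4 peaks was 1.38 and 0.77 RPKM at P4, 1.56 and 2.05 at P10 and 3.29, 3.11 and 3.29 at P28, from 7 and 3 reads in the P4 libraries. The ages did not overlap. The log2 change from P4 to P28 was 1.04 (SE 0.26, limma adjusted p = 0.00893), just inside the threshold, and within the first batch it was 1.03 with an adjusted p of 0.0284. With the total of reads in peaks it was 0.05 (adjusted p = 0.878) and after median centring 0.44 (0.139). Its promoter peak, chr2:119325574-119326436, held 1.58 and 0.69 RPKM at P4, 0.00 and 1.83 at P10 and 4.56, 2.71 and 3.00 at P28 and was not called (adjusted p = 0.136). The exon peak chr2:119326866-119327222 was called from P4 to P10 (log2 change 2.96, adjusted p = 0.00261), on 0 reads in the P4 libraries and 2 reads in each P10 library, so that both ages were at the floor and no fold is given. With no read at P4 it entered the set through a later age, which partly fixed the direction.

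Notch1, the receptor gene, had its highest mean at P10. Over its 17 peaks the level was 1.56 and 1.93 RPKM at P4, 3.48 and 7.32 at P10 and 3.56, 4.0 and 4.17 at P28. Both later ages lay above P4, P10 replicate 2 was the highest library and P10 replicate 1 lay just below the P28 range. The log2 change from P4 was 1.16 at P10 (SE 0.31, limma adjusted p = 0.0170) and 0.84 at P28 (SE 0.28, adjusted p = 0.0306), neither of them called, and from P10 to P28 it was -0.32 (SE 0.28, adjusted p = 0.435). P10 replicate 2 decided that last direction, which was 0.13 without it. Voom on the recovered reads called both changes from P4 (1.59 at P10, adjusted p = 9.55e-05, and 1.17 at P28, adjusted p = 3.51e-04), as did limma without P10 replicate 1 (adjusted p = 0.00144 and 0.00357). Without P10 replicate 2 the P28 change was called (adjusted p = 0.0037) and the P10 change, 0.71, was not (adjusted p = 0.0454).

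Of the 17 Notch1 peaks, 2 were called from P4 to P28, 3 from P4 to P10 and 0 from P10 to P28. Over all peaks 23.1%, 18.7% and 0.00185% were called. The 3′ UTR peak chr2:26458226-26458896 had no read in either P4 library. It then held 2.69 and 2.35 RPKM at P10, from 1 and 2 reads and thus at the floor, and 3.91, 4.58 and 4.38 at P28. Its change was 1.81 at P10 (limma adjusted p = 0.0109) and was called from P4 to P28 (2.40, adjusted p = 0.00151), with an adjusted p of 0.334 from P10 to P28. At P28 the peak was at least 1.80-fold higher than at P4, against 3 reads per P4 library. With no read at P4 it entered the set through a later age, so the direction of this change was partly fixed in advance. Between P4 and P10 the intronic peak chr2:26494338-26496192 went from 0.24 and 1.29 RPKM to 5.84 and 8.07 and held 2.40, 2.58 and 2.23 at P28 (log2 change from P4 to P10 2.22, adjusted p = 0.00558). The intronic peak chr2:26485815-26486505 went from 1.32 and 0.86 RPKM at P4 to 7.84 and 7.99 at P10 and held 1.52, 3.74 and 2.25 at P28 (log2 change from P4 to P10 2.10, adjusted p = 0.00612). The first of these intronic peaks rested on 1 and 4 reads at P4 and 6 and 19 at P10. The second was at the floor at P4, with 2 and 1 reads, and had 3 and 7 at P10. Both intronic peaks were higher in each P10 library than in any library of the other ages, and their differences between P10 and P28 were not called (adjusted p = 0.0807 and 0.0489). The other two called Notch1 peaks were an exon peak, chr2:26463233-26463953, higher at P10 than at P4 (adjusted p = 0.00666), and chr2:26464798-26468005, higher at P28 than at P4 (6.75-fold, log2 change 1.77, adjusted p = 0.00696), with a change of 1.64 already at P10 (adjusted p = 0.0169). The latter is annotated as a promoter but lies inside the gene, far from its start. The exon peak was at the floor at P4, with 0 and 2 reads, and had 5 reads in each P10 library. All 3 P10 calls of Notch1 were lost with a pseudocount of 0.1, with the total of reads in peaks and with a replicate block. Of the P28 calls, that of the 3′ UTR peak was lost with the block. The other was lost with the block, with the total of reads in peaks and after median centring. The peak at the RefSeq start of Notch1, chr2:26503222-26504051, held 2.74 and 3.59 RPKM at P4, 0.00 and 6.65 at P10 and 5.06, 6.22 and 6.66 at P28, and its change from P4 to P28 was not called (log2 change 0.74, SE 0.69, adjusted p = 0.40).

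Hes6, which is expressed in differentiating neurons and counters Hes1, had the highest level of the set at P4 and P10. Its 2 peaks held 5.40 and 3.79 RPKM at P4, 8.48 and 8.72 at P10 and 8.48, 7.27 and 8.64 at P28. P4 lay below both later ages, which overlapped each other. The log2 change was 0.79 from P4 to P10 (SE 0.23, limma adjusted p = 0.0227) and 0.72 from P4 to P28 (SE 0.21, adjusted p = 0.0164), and neither was called. The promoter peak, chr1:91411808-91414768, carried most of the reads, with 5.68 and 3.43 RPKM at P4, 9.15 and 10.12 at P10 and 9.83, 8.30 and 9.45 at P28 (log2 change from P4 to P28 0.90, adjusted p = 0.0355).

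Neurog2, a proneural factor of retinal progenitors that are about to leave the cell cycle, was the one gene whose libraries at both later ages lay below those at P4. Its level over 4 peaks was 2.19 and 2.59 RPKM at P4, 0.00 and 0.76 at P10 and 1.84, 2.06 and 2.00 at P28. The P10 values rest on 0 and 4 reads. The log2 change was -1.35 from P4 to P10 (SE 0.35, limma adjusted p = 0.0141) and -0.19 from P4 to P28 (SE 0.32, adjusted p = 0.618), neither of them called as deposited. Scaling by the summed reads in peaks called it lower in both comparisons, with -2.37 (adjusted p = 0.00126) at P10 and -1.35 (adjusted p = 0.00520) at P28, and median centring called it lower at P10, with -1.55 (adjusted p = 0.00363). Voom on the recovered reads and limma without P10 replicate 2 also called it lower at P10. The promoter-annotated peak nearest the start, chr3:127633382-127634806, held 3.83 and 3.35 RPKM at P4, 0.00 and 1.11 at P10 and 2.21, 1.55 and 2.30 at P28, so that every later library was below both P4 libraries, and its change was not called (adjusted p = 0.0306 for P10 and 0.310 for P28). The peaks of the gene differed, as 2 of the 4 had their highest mean at P4 and 2 at P28. The other promoter peak, chr3:127631961-127632313, had 1 and 5 reads at P4. The distal peak chr3:127639616-127641099 held 1.53 and 0.80 RPKM at P4 and 1.94, 2.61 and 1.75 at P28. The mean of the distal peak chr3:127645849-127646732 was 1.53 at P4 and 2.17 at P28.

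Neurod4, a bHLH factor of differentiating neurons including bipolar and amacrine cells, followed Notch1 in having its highest mean at P10. Its level over 8 peaks was 1.83 and 1.52 RPKM at P4, 2.70 and 6.83 at P10 and 2.94, 3.55 and 3.72 at P28. The high P10 mean came from P10 replicate 2, and without it the change from P10 to P28 was 0.25 in place of -0.29. The change from P4 was 1.01 at P10 (SE 0.35, limma adjusted p = 0.0479) and 0.72 at P28 (SE 0.32, adjusted p = 0.0810). Voom called both (adjusted p = 0.00280 at P10 and 0.00879 at P28), as did limma without P10 replicate 1 (0.00193 and 0.00939). The promoter peak, chr10:130279907-130280643, held 1.85 and 2.43 RPKM at P4, 2.45 and 11.77 at P10 and 5.34, 6.76 and 6.09 at P28 and was not called (adjusted p = 0.0846 for P28). Olig2, a bHLH factor of some retinal progenitors and of the oligodendrocyte lineage elsewhere, was near the floor. Its 2 distal peaks together held 1.15 and 1.52 RPKM at P4, 1.53 and 4.01 at P10 and 2.00, 1.61 and 1.46 at P28, with 3 reads in each P4 library, and none of its changes was called (0.20 from P4 to P28, adjusted p = 0.619).

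Over single peaks, 8 of the 52 were called from P4 to P28, all higher, against 23.1% of all peaks (limma adjusted p under 0.01), so the members' share was the lower one. Between P4 and P10, 6 were called, all higher, against 18.7%, but with the total of reads in peaks 1 was called higher and 5 lower (4706 and 17156 over all peaks). From P10 to P28, 0 were called, against 0.00185% of all peaks, with 17 of the 52 at an unadjusted p under 0.05 (32.5% of all peaks) and 2 called by limma voom (8.26% of all peaks). Without P10 replicate 2, 14 were called between P10 and P28, 13 of them higher at P28, beside 15.2% of all peaks called. The median change of the 52 peaks was 0.85 from P4 to P28 and 0.80 from P4 to P10, beside 0.68 and 0.23 over all peaks. The P10 medians turned on single libraries, with 0.12 for the members and 0 for all peaks without P10 replicate 2, and 1.17 and 0.58 without P10 replicate 1. With the total of reads in peaks the members' medians were -0.12 at P28 and -0.22 at P10, beside -0.29 and -0.53 over all peaks, and with low values filtered, which kept 38 members, they were 1.01 and 0.97, beside 1.35 and 1.02. All P28 libraries lay above both P4 libraries at 37 of the 52 (50.6% of all peaks) and below them at 3 (20.7% of all peaks). For the 11 peaks annotated as promoters the median difference between P28 and P4 was 1.06, with 3 called, beside 1.26 over 17144 promoter peaks, of which 32.2% were called. For the other 41 it was 0.79, with 5 called, beside 0.54 over the remaining 91109 peaks, of which 21.4% were called. The Notch1 peaks chr2:26464798-26468005, which was called, and chr2:26470354-26470936 are among the 11 but lie inside the gene, far from its RefSeq start.

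These peak calls rest on few libraries. Of the 14 calls, the rise of the Hes5 promoter peak from P4 to P28 alone held without each library in turn. A pseudocount of 0.1 kept 9 of the 14, the total of reads in peaks 3, median centring 12 and a replicate block 5. Voom and the filter on low values kept all 14. Without P4 replicate 1, 12 of the 14 were lost, at adjusted p from 0.0117 to 0.0596, and without P4 replicate 2, 13 were lost, at 0.0107 to 0.0426. Without P28 replicate 2, 12 were lost (0.0101 to 0.0367), without P28 replicate 3, 10 (0.0130 to 0.0328), without P28 replicate 1, 6 (0.0119 to 0.0290), and without P10 replicate 1 the P10 rise of the Notch1 exon peak (0.0164). Counts from P4 to P28 were 2, 1, 5, 2 and 2 without P4 replicates 1 and 2 and P28 replicates 1, 2 and 3, beside 7.18%, 7.66%, 13.7%, 10.6% and 10.5% of all peaks, and 16 without either P10 library, beside 39% and 39.2%. The share of all peaks called thus fell and rose along with that of the members. For P10 against P4 the counts were 1, 0, 3, 0 and 2 in the same order (5.06%, 5.05%, 12%, 8.03% and 10.3% of all peaks), 12 without P10 replicate 1 (19.4%), and 10 without P10 replicate 2 (16.6%), of which 3 were lower. Among the 5 gene-level calls, those of Dll1, Jag1 and Dll4 were lost without P4 replicate 1 (adjusted p from 0.0117 to 0.0271) and without P4 replicate 2 (0.0135 to 0.0590), and that of Dll4 also without each P28 library (0.0284 to 0.0415). Genes called for P28 against P4 were 1 without either P4 library, beside 19.9% and 19.6% of all genes. For P10 against P4 they were 3 without P10 replicate 1 and 2, 1 of them lower, without P10 replicate 2, beside 27.9% and 27.5%.

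The age of the highest level differed within the set. The highest mean was at P4 for 6 of the 52 peaks, at P10 for 21 and at P28 for 25, beside 25.8%, 28.4% and 45.8% of all peaks. Notch1 and Neurod4 held 18 of the 21 peaks that were highest at P10. P10 replicate 2 lay above all P28 libraries at 23 of the 52, of which 14 were Notch1 and 6 Neurod4 peaks, beside 34.7% of all peaks. P10 replicate 1, the shallowest library, did so at 8, of which 4 were Notch1 and 2 Neurod4 peaks, beside 22.2% of all peaks. With 2 P10 libraries that differ this much, the order of P10 and P28 is not settled for these genes.

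**Figure D3:**
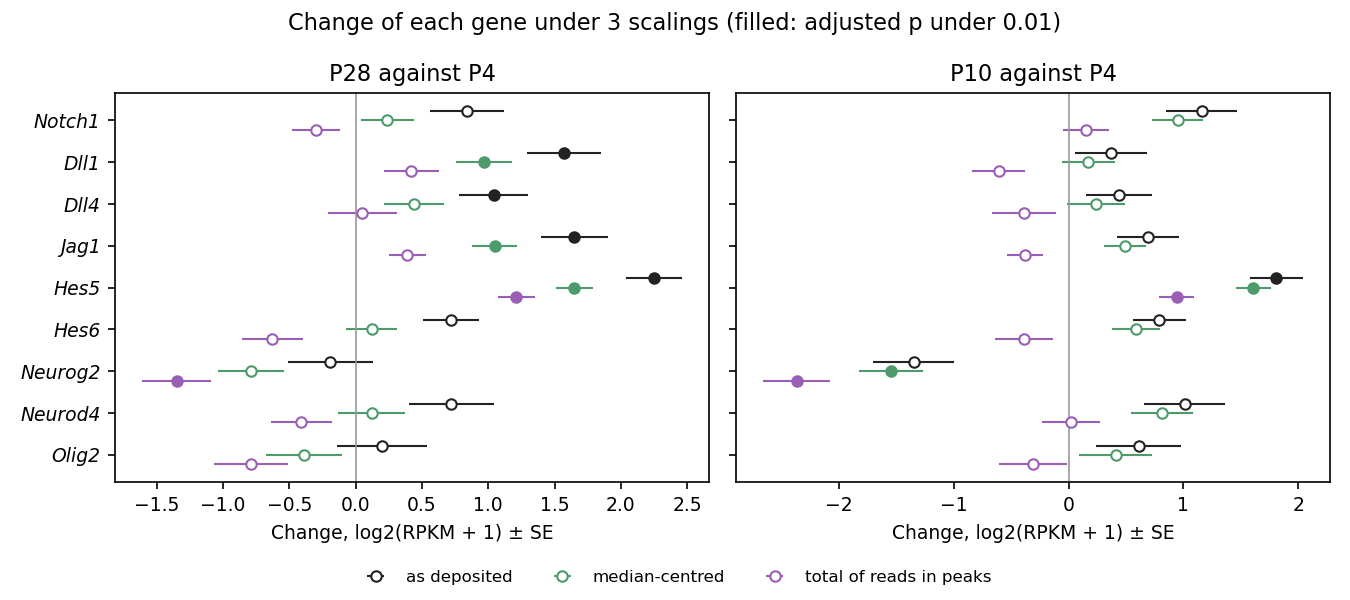
Change of each gene from P4 to P28 (left) and from P4 to P10 (right) on the log2(RPKM + 1) scale, with the standard error as a bar, for the values as deposited, median-centred per library and scaled by the summed reads in peaks. Filled points passed an adjusted p of 0.01, and Hes5 is filled on the positive side under all 3 scalings in both panels.

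The direction of several genes depended on the scaling. The median change of all genes from P4 to P28 was 0.76 as deposited, 0.16 after median centring and -0.27 with each library scaled by its total of reads in peaks. Relative to these, Hes5, Jag1 and Dll1 stood above the median of all genes each time. Their changes were 2.25, 1.65 and 1.57 as deposited, 1.65, 1.05 and 0.97 after median centring and 1.21, 0.39 and 0.42 with the total of reads in peaks, where those of Jag1 (limma adjusted p = 0.0556) and Dll1 (adjusted p = 0.132) were no longer called. Dll4, at 0.44 and 0.05, was not called under either (adjusted p = 0.139 and 0.878). Notch1, Hes6 and Neurod4, positive as deposited, were at -0.30, -0.63 and -0.41 with the total of reads in peaks. Neurog2 was below the median of all genes under all 3.

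The rest of the pathway was followed through 48 other Notch pathway genes, of which 47 had a peak. From P4 to P28, 28 of the 47 were called higher and 0 lower, beside 33.7% and 7.07% of all genes, with a median change of 1.18 beside 0.76 over all genes. All 3 other receptor genes, Notch2, Notch3 and Notch4, were among them, with log2 changes of 1.15, 1.5 and 1.51, as were 15 of 24 genes that process ligand or receptor, 3 of 7 of the nuclear complex, 6 of 9 targets and feedback genes and 1 of 4 ligands. The top changes were in Pofut1, which puts fucose on Notch, from 0.56 ± 0.50 (SD, n = 2) to 9.06 ± 1.08 RPKM (n = 3; log2 change 2.73, limma adjusted p = 1.21e-04), in the ubiquitin ligase gene Neurl1a, which acts on ligands (2.16, adjusted p = 2.45e-04), and in Numb, an inhibitor of Notch (2.11, adjusted p = 5.76e-04). Hes1, the other main Hes target, stood at 1.31 ± 0.01 RPKM at P4, 4.83 ± 1.27 at P10 and 3.62 ± 0.50 at P28 (log2 change to P28 0.99, adjusted p = 0.00700), and Rbpj was not called (0.49, adjusted p = 0.0991). By P10, 10 of the 47 were called higher and 0 lower, beside 16.5% and 8.01% of all genes. The count from P4 to P28 fell to 11, 13, 18, 12 and 12 without P4 replicates 1 and 2 and P28 replicates 1, 2 and 3, where calls over all genes fell to 19.9%, 19.6%, 30.1%, 25.8% and 24.9%. That to P10 fell to 2 and 5 without P4 replicates 1 and 2, beside 8.45% and 8.7% of all genes. With the total of reads in peaks 6 were higher and 2 lower at P28 (2860 and 6416 over all genes). At P10 they were 6 and 5 (1588 and 6019). Hes1 was at -0.07 and Rbpj at -0.70 at P28 under this scaling. After median centring 12 were higher and 0 lower at P28, beside 5211 and 4213 of all 25400 genes, and Rbpj was at -0.10. With low values filtered, 26 of the 37 tested were higher and 0 lower at P28. Over all 12700 genes kept by this filter, 8011 were higher and 73 lower, with a median change of 1.39, so the share of all genes called was also high there.

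The proneural list, of other bHLH and related factors that are not all proneural, held genes called in both directions. Of 19 listed, 17 had a peak, and 6 were called higher and 2 lower from P4 to P28, beside 33.7% and 7.07% of all genes, with a median change of 0.64. Tcf3, a general bHLH partner, rose by 2.91 (limma adjusted p = 9.50e-05), Bhlhe41 by 2.12 (adjusted p = 1.53e-04) and Neurod1, a factor of photoreceptor and amacrine cell differentiation, by 2.07 (adjusted p = 1.18e-04), from 4.34 ± 0.28 RPKM at P4 (n = 2) to 16.57 ± 1.26 at P10 (n = 2) and 21.48 ± 1.89 at P28 (n = 3). Neurod6 fell by 1.36 (adjusted p = 0.00412) and Atoh1 by 1.31 (adjusted p = 0.00415). By P10, 4 were called higher and 3 lower, beside 16.5% and 8.01% of all genes. The lower calls depended on the fit: at P28 there were 0 with a pseudocount of 0.1, with low values filtered (10 of the 17 tested) and with the replicate block, beside 6, 6 and 4 higher, and 4 with voom, beside 7 higher. At P10 there was 1 with a pseudocount of 0.1 and 1 with voom, each beside 5 higher, and 0 with low values filtered and with the block, each beside 4 higher. Lower calls over all genes at P28 were 1796 as deposited, 662 with the pseudocount and 73 of 12700 with the filter. They were 727 with the block and 3792 with voom. At P10 they were 2035, 1829, 39, 1139 and 253 in the same order. The count of 8 from P4 to P28 fell to 4 without P4 replicate 1, P4 replicate 2, P28 replicate 2 or P28 replicate 3, beside 19.9%, 19.6%, 25.8% and 24.9% of all genes. The count of 7 to P10 fell to 3, 2 and 3 without P4 replicate 1, P4 replicate 2 and P28 replicate 2, beside 8.45%, 8.7% and 16.4%. With the total of reads in peaks the balance turned, to 4 higher and 6 lower at P28 and 2 higher and 5 lower at P10. That of all genes turned as well, to 2860 higher and 6416 lower at P28 and 1588 and 6019 at P10. The calls of Neurod6 (adjusted p from 0.0127 to 0.0334) and Atoh1 (0.0128 to 0.0271) were lost without each P4 or P28 library.

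**Figure D4:**
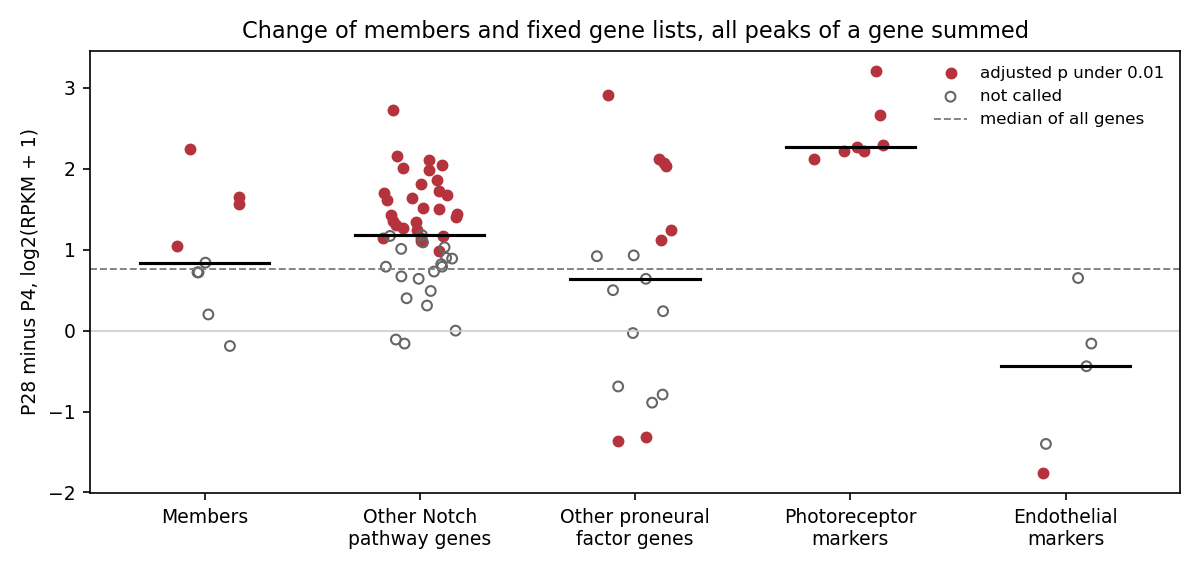
Change from P4 to P28 on the log2(RPKM + 1) scale for single genes of the 9 members, the other Notch pathway genes, the other proneural factor genes, and photoreceptor and endothelial markers. Filled points passed an adjusted p of 0.01, black bars are medians and the dashed line is the median of all genes, 0.76. The members' median of 0.84 lies near the dashed line, that of the other Notch pathway genes, 1.18, lies above it, and Hes5 at 2.25 is the highest member. With low values filtered, which is not drawn, the median of all genes was 1.39.

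Markers of retinal cell types were read beside the 33.7% of all genes called higher and 7.07% called lower from P4 to P28. All 7 photoreceptor markers were called higher, and their summed level was 15.8 to 16 RPKM at P4, 116.4 to 119.8 at P10 and 88.6 to 127.6 at P28. Of 6 progenitor markers, 2, Rax among them, were called higher and 0 lower (sums of 10.1 to 11.4, 23.1 to 28.9 and 25.6 to 33.4 RPKM). Rax alone went from 1.94 ± 0.31 to 16.43 ± 2.70 RPKM, while Pax6 stood at 2.75 ± 0.32 and 2.89 ± 0.62 and Sox2 at 1.68 ± 0.02 and 0.78 ± 0.39. Of 5 Müller glia markers 1, Glul, was called higher (sums of 7.9 to 8.8, 12.3 to 14.6 and 17.5 to 24.0), from 2.45 ± 0.82 to 11.50 ± 1.90 RPKM, while Rlbp1 stood at 1.56 ± 0.46 and 2.03 ± 0.35. Of 5 bipolar cell markers 3 were called higher (5.7 to 7.2, 15.0 to 20.9 and 27.1 to 36.4). Of 6 endothelial markers, 5 had a peak and Tie1 had none, and 0 were called higher and 1, Tek, lower, on 3 and 2 reads at P4 and 0, 2 and 1 at P28, at the floor at both ages. Their summed level was 11.1 to 14.9 RPKM at P4, 4.7 to 10.5 at P10 and 5.4 to 8.2 at P28, while Pecam1 of this list stood at 1.29 ± 0.31 RPKM at P4 and 2.58 ± 0.39 at P28 (log2 change 0.65, limma adjusted p = 0.0814). Of 5 oligodendrocyte markers, whose cells the mouse retina lacks, 4 had a peak and 1, Mbp, was called higher (8.2 to 10.3, 9.1 to 20.9 and 18.2 to 23.6 RPKM). Of 5 markers of the retinal pigment epithelium, 2, Rpe65 and Tyr, were called lower (8.8 to 8.8, 4.1 to 4.4 and 5.9 to 10.4 RPKM). The call of Rpe65 rests on 1 read in each P4 library and 0, 1 and 0 at P28, at the floor at both ages, and that of Tyr on 6 and 3 reads at P4. No listed marker with a peak was at 0 in both P4 libraries, and the part of cell composition in the changes of the 9 genes was not tested.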

How the data were processed

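H3K18La CUT&Tag libraries of whole mouse retina (2 at P4, 2 at P10, 3 at P28) were analysed from the deposited peak table. The authors mapped reads to GRCm38, called peaks with MACS, kept those past a q-value of 1e-06 in at least 2 replicates of an age, merged the ages and annotated them with ChIPseeker (1.34.1 in the submitters' processing notes), promoters running from -1000 to 500 bases around a start. The authors deposited RPKM, whose library size came from large genomic windows of 10000 bases. The deposited table of the authors' own fold changes and p-values (edgeR 3.40.2) was not used. The study's text counts 3 replicates, and 2 each of the P4 and P10 libraries were used here. The deposited annotation takes another Notch1 start than RefSeq, so its Notch1 distances are not printed.

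RPKM times peak width was a whole multiple of 1 step per library for 100.0% of peaks (tolerance 0.001 reads), which gave reads per peak. Counting error is thus largest in P10 replicate 1, the library with the fewest reads in peaks (199970), and reads carried no molecular identifiers. Genes took the reads of all their peaks over the summed width. limma (3.58.1, R 4.3.3) was fitted to log2(RPKM + 1) over all 7 libraries and all 108253 peaks or 25400 genes, with a variance trend and each pair of ages as a contrast, Benjamini-Hochberg adjusted over all features and called under 0.01. Changes are on that scale, which understates those of low values, and a fitted change of a gene or peak at the floor is no bound. Folds are ratios of mean RPKM, or against 3 reads per library at the floor.

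The members and lists were chosen with earlier results of these data known. Named were all members, their promoter peak nearest the start, up to 3 called peaks per gene (the other two of Notch1 are added), the 3 most raised and 3 most lowered called genes of each list, and Hes1, Rbpj and Neurod1. An item that the rule also names is not reported here. Notch2, Notch3, Notch4 and the marker genes named were picked after their values were seen. Alternatives were a pseudocount of 0.1, a filter on low values, 2 scalings, voom on recovered reads, a threshold of 0.05, a replicate block and leaving out each library. Libraries of an age differed beyond counting error (chi-square over degrees of freedom from 1.27 to 3.77) and were counted separately.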

Additional observations from a re-analysis of the deposited data

How the results depend on the processing

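Hes5 kept its gene-level rise at P28 and P10 and its promoter rise at P28 under every alternative tried. Other calls were less stable, and the cause was not tested.

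Member peaks called from P4 to P28 (8) became 2 with the total of reads in peaks (22.2% of all peaks) and 16 with voom, 1 of them lower (41.5%). They became 16 at a threshold of 0.05 (42%) and 1 to 16 without single libraries. For P10 against P4 (6) they became 19 at 0.05, 4 of them lower (35%), and 0 to 12 without single libraries. With the total of reads in peaks 1 was higher and 5 lower. From P10 to P28 (0) they became 1 after median centring (2.17%) and 2 with voom, 1 of them lower (8.26%). They became 6 at 0.05, 1 of them lower (13.4%), and 0 to 14 without single libraries. Member genes called from P4 to P28 (4) became 2 with the total of reads in peaks, 1 higher and 1 lower (36.5% of all genes), and 1 to 6 without single libraries. For P10 against P4 (1) they became 2 with either scaling, 1 higher and 1 lower each time (29.9% and 25.8%). They became 4 with voom, 1 of them lower (21.4%), 5 at 0.05, 1 of them lower (39.5%), and 1 to 3 without single libraries. From P10 to P28 (0) they became 2 with voom (10.5%), 3 at 0.05 (22.9%) and 0 to 2 without single libraries.

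The replicate numbers did not pair the libraries (correlations of deviations from -0.001 to 0.0469). With a replicate block, member peaks called were 3 from P4 to P28 and 2 from P4 to P10, beside 14.1% and 15.5% of all peaks. List genes called were 14 of the Notch list at P28 and 4 of the proneural list at each age. Of all genes, 24.2% were called at P28 and 16.8% at P10 under the block. Dll4 lost its call with the replicate block (adjusted p = 0.0438), with a pseudocount of 0.1 (0.0117) and with low values filtered (0.0110), limma each time.

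Counts of the lists under alternatives were chosen after seeing the data. Notch list genes called at P28 (28) became 8 with the total of reads in peaks, 6 higher and 2 lower. After median centring 12 were called. All genes called were 36.5% and 37.1% under these scalings, beside 40.7% as deposited. Without single libraries 11 to 36 were called, beside 19.6% to 57.1% of all genes. At P10 (10) they became 17 at 0.05 (39.5%) and 2 to 15 without single libraries (8.45% to 27.9%). Proneural list genes ranged from 4 to 10 at P28 and from 2 to 8 at P10 without single libraries, beside the same shares of all genes. With low values filtered they were 4 at P10, beside 35.3% of all genes.

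Changes that turned sign with the total of reads in peaks were, from P4 to P28, Notch1 at -0.30, Hes6 at -0.63, Neurod4 at -0.41, Olig2 at -0.79, Hes1 at -0.07 and Rbpj at -0.70, and, from P4 to P10, Dll1 at -0.61, Dll4 at -0.39, Jag1 at -0.38, Hes6 at -0.39 and Olig2 at -0.31. Median centring turned Olig2 to -0.39 and Rbpj to -0.10 from P4 to P28. Without P10 replicate 2, Dll1 turned to -0.07 from P4 to P10 (0.81 without P10 replicate 1), and from P10 to P28 Notch1 turned to 0.13 (-0.76 without P10 replicate 1), Neurod4 to 0.25 (-0.84) and Olig2 to 0.09 (-0.90).

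Over all peaks, calls from P4 to P28 were 20488 higher and 4553 lower as deposited, 14172 and 10724 after median centring, and 7759 and 16246 with the total of reads in peaks. From P4 to P10 they were 12320 and 7944, then 12128 and 11151, then 4706 and 17156. Read depth limits single peaks at P4 and P10, where many of the 52 held 3 reads or fewer.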
